A study of Sus scrofa with 12 samples.

Results

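The 10 genes described here belong to the Hippo pathway and its output and were measured in the *Semimembranosus* muscle of pigs. They are the 5 target genes CCN1, CCN2, ANKRD1, AMOTL2 and LATS2, the co-activators YAP1 and WWTR1, the DNA-binding partners TEAD1 and TEAD4, and the angiomotin AMOTL1. The members were chosen by name from the count matrix, with the values of the same pigs known, because CCN1, YAP1 and AMOTL1 had been listed by the study as differing between the groups. All 10 symbols had an Ensembl identifier and counts, and all 10 were among the 14262 genes tested, out of 20341 genes with at least 1 count. For CCN1, YAP1 and AMOTL1 the difference between the groups is therefore given as a description with no test.

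The study sequenced polyadenylated RNA of 12 unrelated Italian Large White pigs, 6 with high and 6 with low intramuscular fat (IMF), to look for expression differences that accompany fat deposition in the muscle. All pigs had the same housing and diet, were labelled with a weight of 150 to 160 kg, and were between 229 and 249 days old. Each group holds 3 pigs labelled female and 3 labelled castrated male. The pigs are numbered 1 to 12, pigs 1 to 6 being the high IMF group, and 1 sample of whole muscle per pig holds fibres together with vessel, connective tissue, fat and immune cells.

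The 12 libraries held between 131048805 and 178013997 counts. The fibre genes ACTA1, CKM and TNNT3 together reached 4338000 to 8553000 normalized counts in every pig, and 5 other fibre genes carried no identifier. In 6 of the 12 pigs the counts of 2 Y chromosome genes went against the labelled sex: pigs 3 and 5 of the high and pigs 7, 8, 9 and 10 of the low IMF group. Results are therefore also given without these 6 pigs, which leaves 4 high and 2 low IMF pigs, and an exchange of pigs between groups was not tested.

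The Hippo pathway is a kinase cascade in which STK3 and STK4 act on LATS1 and LATS2, which in turn phosphorylate the co-activators YAP1 and WWTR1 (also called TAZ) and keep them out of the nucleus. In the nucleus YAP1 and WWTR1 bind TEAD factors at their motif, and CCN1, CCN2 and ANKRD1 are among the genes most often used as a readout of that activity. AMOTL2 and LATS2 are targets that restrain YAP1 in return, and angiomotins such as AMOTL1 hold YAP1 in the cytoplasm and at cell junctions. In muscle the pathway is known for its part in satellite cells, in fibre size and in the response to mechanical load. The pathway acts largely through phosphorylation and localization, which RNA counts do not measure.

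The 250 bases before the annotated start of each gene were searched on both strands for the TEAD motif GGAATG, in the RefSeq annotation of Sscrofa11.1. A match was found in 3 of the 10 members, against 10.4% of 20634 such windows. These 3 windows, of CCN1, CCN2 and ANKRD1, are printed because they hold a match. They lie at chr4:130395180-130395429 on the minus strand for CCN1, at chr1:31674148-31674397 on the plus strand for CCN2, and at chr14:102612858-102613107 on the minus strand for ANKRD1. Each reads 5′ to 3′ on the strand of its gene and ends at the base before the gene start, with the match in capitals.
CCN1: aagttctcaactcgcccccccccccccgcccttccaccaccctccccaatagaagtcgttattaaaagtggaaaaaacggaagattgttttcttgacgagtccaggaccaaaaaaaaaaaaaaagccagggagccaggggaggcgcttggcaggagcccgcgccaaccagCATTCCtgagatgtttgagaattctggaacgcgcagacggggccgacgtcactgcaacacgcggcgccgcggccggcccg
CCN2: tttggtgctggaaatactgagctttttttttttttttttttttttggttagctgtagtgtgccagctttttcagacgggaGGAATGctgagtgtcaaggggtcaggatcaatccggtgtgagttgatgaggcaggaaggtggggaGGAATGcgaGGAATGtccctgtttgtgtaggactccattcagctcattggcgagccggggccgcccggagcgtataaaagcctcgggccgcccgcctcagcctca
ANKRD1: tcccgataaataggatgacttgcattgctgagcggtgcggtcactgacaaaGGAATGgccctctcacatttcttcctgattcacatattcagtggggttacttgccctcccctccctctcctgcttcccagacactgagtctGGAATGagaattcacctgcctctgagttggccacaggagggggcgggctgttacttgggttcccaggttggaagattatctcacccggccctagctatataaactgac

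CCN2 held 3 matches, whose first bases lie 170, 105 and 96 bases before the gene start. ANKRD1 held 2 matches, 199 and 108 bases before it. CCN1 held 1 match on the opposite strand, 80 bases before the start. At least 3 matches were found in 0.0388% of all windows and at least 2 in 0.717%. Of the 22 genes of the conserved YAP and TAZ target list, 5 had a match, the other two being ASAP1 and NUAK2. The AP-1 motif TGANTCA, present in 5.46% of windows, occurred in ANKRD1 alone of the members, and the CArG box bound by SRF, present in 1.27%, in 0 of the 10. AMOTL2, LATS2, AMOTL1, YAP1, WWTR1, TEAD1 and TEAD4 had no GGAATG in these windows, which says nothing of sites elsewhere.

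The level of each gene in each pig is given below as a normalized count, which is the count scaled by TMM to the mean library, and the log2 fold change (log2FC) is low over high IMF, so a negative value means a higher level in high IMF pigs. In whole tissue a larger share of a cell type and more RNA per cell cannot be told apart.

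**Figure D1:**
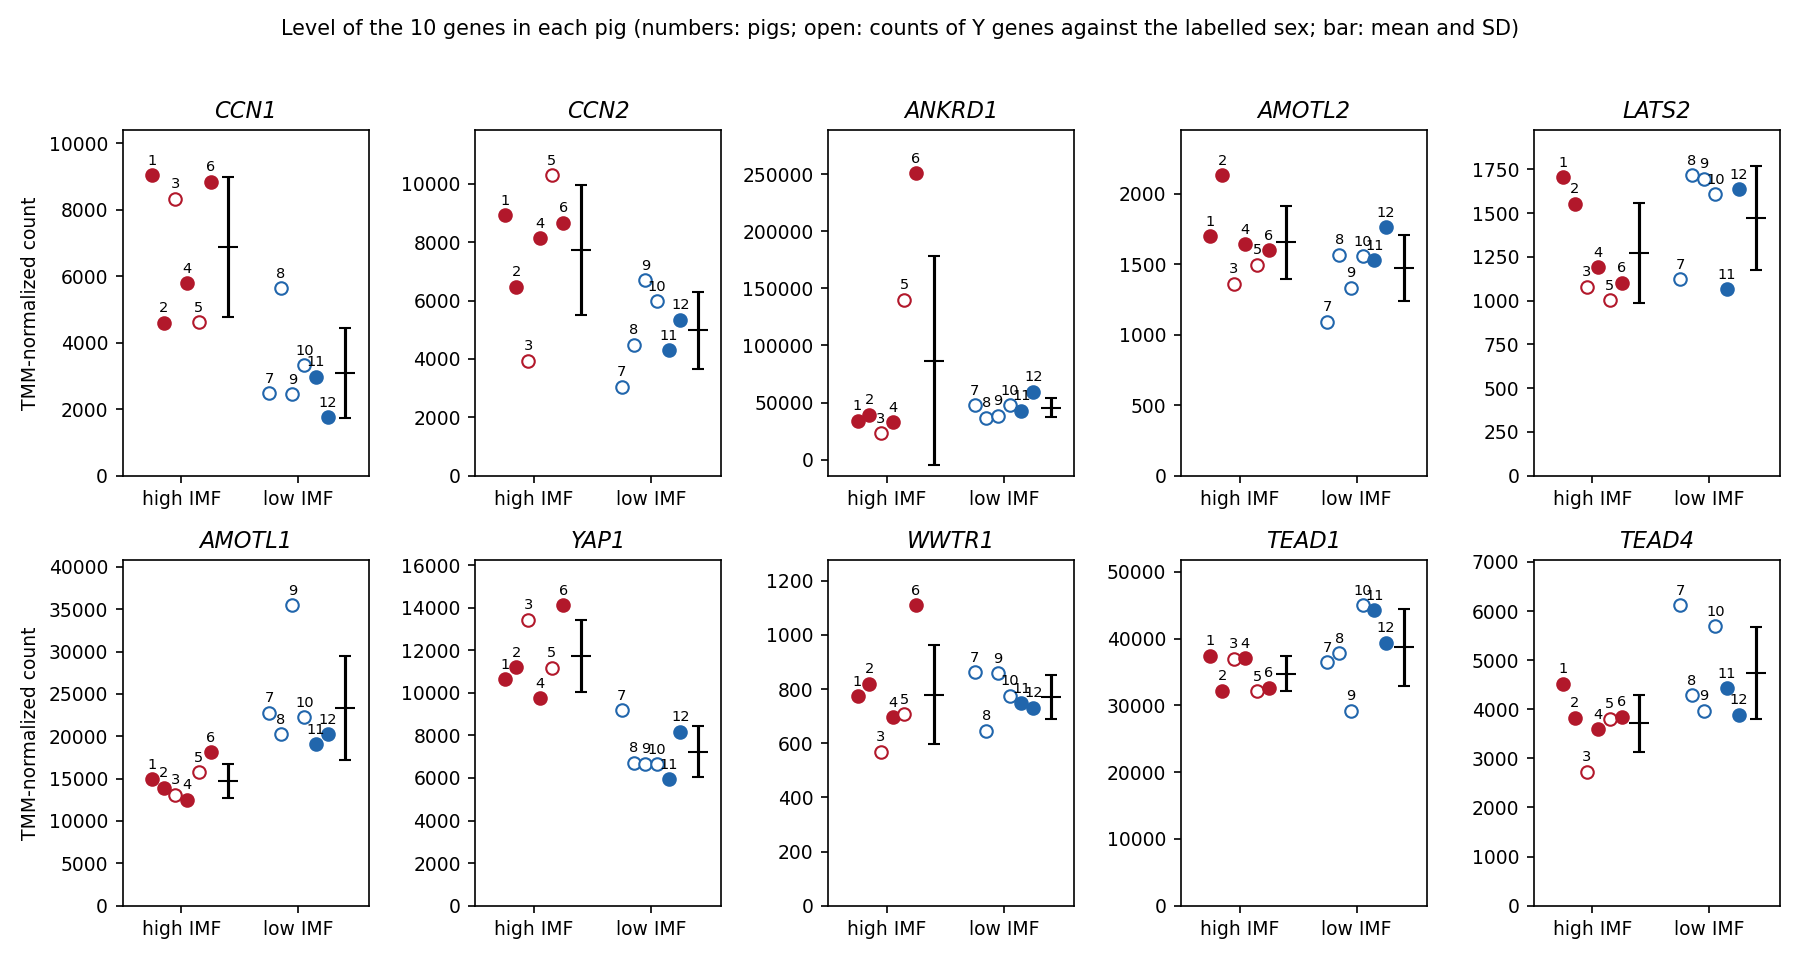
TMM-normalized count (vertical axis, linear) of the 10 genes in each of the 12 pigs, by group, with the pig number beside each point, open points for the 6 pigs whose Y chromosome counts went against the labelled sex, and a bar for the mean and SD of 6 pigs. YAP1 and AMOTL1 are the panels in which the groups do not overlap, and in the ANKRD1 panel pigs 5 and 6 stand at 139910 and 250710 above all others.

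CCN1 (ENSSSCG00000006940), also called CYR61, encodes a secreted matricellular protein that binds integrins, and lies at chr4:130392404-130395179 on the minus strand. The high IMF pigs 1 to 6 had 9033, 4607, 8338, 5793, 4620 and 8844 normalized counts. The low IMF pigs 7 to 12 had 2472, 5638, 2442, 3317, 2975 and 1752. Low IMF pigs 7 and 9 to 12 thus lay below every high IMF pig, and pig 8 was the only one of the 6 within the range of the other group. The means were 6873 ± 2101 (SD, n = 6) in high and 3099 ± 1353 (SD, n = 6) in low IMF pigs, a ratio of 2.22, and the log2FC was -1.15 (SE 0.27). It was -1.40 without pig 8 and -1.57 (SE 0.36) without the 6 pigs whose sex label was contradicted.

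CCN2 (ENSSSCG00000004192), also called CTGF, encodes the related matricellular protein associated with fibrosis and matrix production, and lies at chr1:31674398-31677697 on the plus strand. Its normalized counts were 8929, 6475, 3936, 8136, 10292 and 8670 in pigs 1 to 6 and 3049, 4491, 6697, 5986, 4293 and 5342 in pigs 7 to 12. High IMF pigs 1, 4, 5 and 6 lay above every low IMF pig, while pigs 2 and 3 lay within the range of the low group. The mean was 7740 ± 2237 (SD, n = 6) against 4976 ± 1306 (SD, n = 6), with a log2FC of -0.64 (SE 0.22). The unadjusted p of 0.0135 became an adjusted p of 0.427 over all genes by edgeR's quasi-likelihood test, so the difference did not pass the threshold. The log2FC was -0.73 (SE 0.19) without the 6 pigs.

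ANKRD1 (ENSSSCG00000010461) encodes a titin-binding ankyrin repeat protein of muscle that is induced by stretch and injury, and lies at chr14:102603777-102612857 on the minus strand. Pigs 5 and 6 of the high IMF group had 139910 and 250710 normalized counts. The other high IMF pigs had 34082, 39259, 23059 and 32854, and the low IMF pigs 47502, 36664, 38491, 47837, 42912 and 59435. The higher mean of the high IMF group, 86650 ± 91320 (SD, n = 6) against 45470 ± 8217 (SD, n = 6), came from these 2 pigs, since the median was 36670 in high and 45210 in low IMF pigs. The log2FC was -0.93 (SE 0.52; adjusted p = 0.548, edgeR) with all pigs and 0.49 (SE 0.17; adjusted p = 0.825, edgeR) without pigs 5 and 6, so its direction turned. It was -0.24 (SE 0.39) without pig 6 alone, -0.36 (SE 0.49) by limma-voom, and -0.57 (SE 0.51) with the labelled sex as a covariate. The Y chromosome counts contradict that label in 6 of the 12 pigs, so the fit with this covariate cannot be taken as adjusted for sex. Without the 6 pigs of contradicted label, which include pig 5, the log2FC was -0.79 (SE 0.91).

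AMOTL2 (ENSSSCG00000011643; chr13:75490936-75507360, minus strand) and LATS2 (ENSSSCG00000036326; chr11:1225523-1265970, minus strand) are the targets that act back on YAP1, as an angiomotin and as a kinase. AMOTL2 ranged from 1361 to 2129 normalized counts in high IMF pigs, with a median of 1621. In low IMF pigs it ranged from 1091 to 1763, with a median of 1541. Its log2FC was -0.17 (SE 0.13; adjusted p = 0.682, edgeR). It was -0.08 (SE 0.12) without pig 2, -0.09 (SE 0.12) without pig 7, and -0.10 (SE 0.18) without the 6 pigs of contradicted label. LATS2 ranged from 1002 to 1704 in high and from 1064 to 1715 in low IMF pigs, with medians of 1147 and 1621. Its log2FC of 0.21 (SE 0.17; adjusted p = 0.688, edgeR) was -0.03 (SE 0.26) without the 6 pigs and 0.09 (SE 0.19) without pigs 5 and 6. For both genes the groups overlapped.

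YAP1 (ENSSSCG00000031429), the co-activator itself, lies at chr9:32811629-32924926 on the plus strand. The high IMF pigs had 10627, 11201, 13441, 9759, 11186 and 14102 normalized counts and the low IMF pigs 9184, 6710, 6675, 6658, 5951 and 8175. The groups did not overlap and all 6 high IMF pigs were the higher, the closest being pig 4 at 9759 and pig 7 at 9184. The means were 11720 ± 1687 (SD, n = 6) and 7225 ± 1204 (SD, n = 6), a ratio of 1.62, and the log2FC was -0.70 (SE 0.13). Leaving out 1 pig at a time gave values from -0.77 to -0.64, and the log2FC was -0.68 (SE 0.21) without the 6 pigs.

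WWTR1 (ENSSSCG00000011704; chr13:89742980-89889547, minus strand), the paralogue of YAP1, had 779 ± 182 normalized counts (SD, n = 6) in high and 770 ± 82.2 (SD, n = 6) in low IMF pigs. Its log2FC was -0.02 (SE 0.15; adjusted p = 0.981, edgeR), and its sign changed with the setting. It was -0.19 (SE 0.22) without the 6 pigs. The highest value of all pigs was that of pig 6, at 1109, and the lowest that of pig 3, at 569, both in the high IMF group.

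TEAD1 (ENSSSCG00000013399; chr2:46396490-46670619, minus strand) and TEAD4 (ENSSSCG00000000736; chr5:67130392-67167579, minus strand) encode the transcription factors through which YAP1 and WWTR1 reach DNA. TEAD1 ranged from 32129 to 37466 normalized counts in high and from 29200 to 44979 in low IMF pigs, with a log2FC of 0.15 (SE 0.11; adjusted p = 0.646, edgeR), which was 0.27 (SE 0.15) without the 6 pigs. TEAD4 had 4524, 3826, 2728, 3590, 3805 and 3845 normalized counts in high IMF pigs and 6114, 4291, 3972, 5692, 4434 and 3893 in low IMF pigs. Only pig 1 of the high IMF group lay within the range of the low group. The log2FC of TEAD4 was 0.35 (SE 0.14), with an unadjusted p of 0.029 and an adjusted p of 0.441 by edgeR's quasi-likelihood test. It was 0.08 (SE 0.15) without the 6 pigs of contradicted label.

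AMOTL1 (ENSSSCG00000014960; chr9:26811872-26978107, plus strand) stood the other way round from YAP1. Pigs 1 to 6 had 14908, 13940, 13121, 12510, 15727 and 18151 normalized counts and pigs 7 to 12 had 22763, 20229, 35446, 22224, 19067 and 20280. The groups did not overlap and all 6 low IMF pigs were the higher, the closest being pig 11 at 19067 and pig 6 at 18151. The means were 14730 ± 2043 (SD, n = 6) and 23340 ± 6090 (SD, n = 6), and the log2FC was 0.66 (SE 0.15). Pig 9 raised the low IMF mean: the log2FC was 0.51 (SE 0.11) without it, and 0.41 (SE 0.18) without the 6 pigs of contradicted label.

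**Figure D2:**
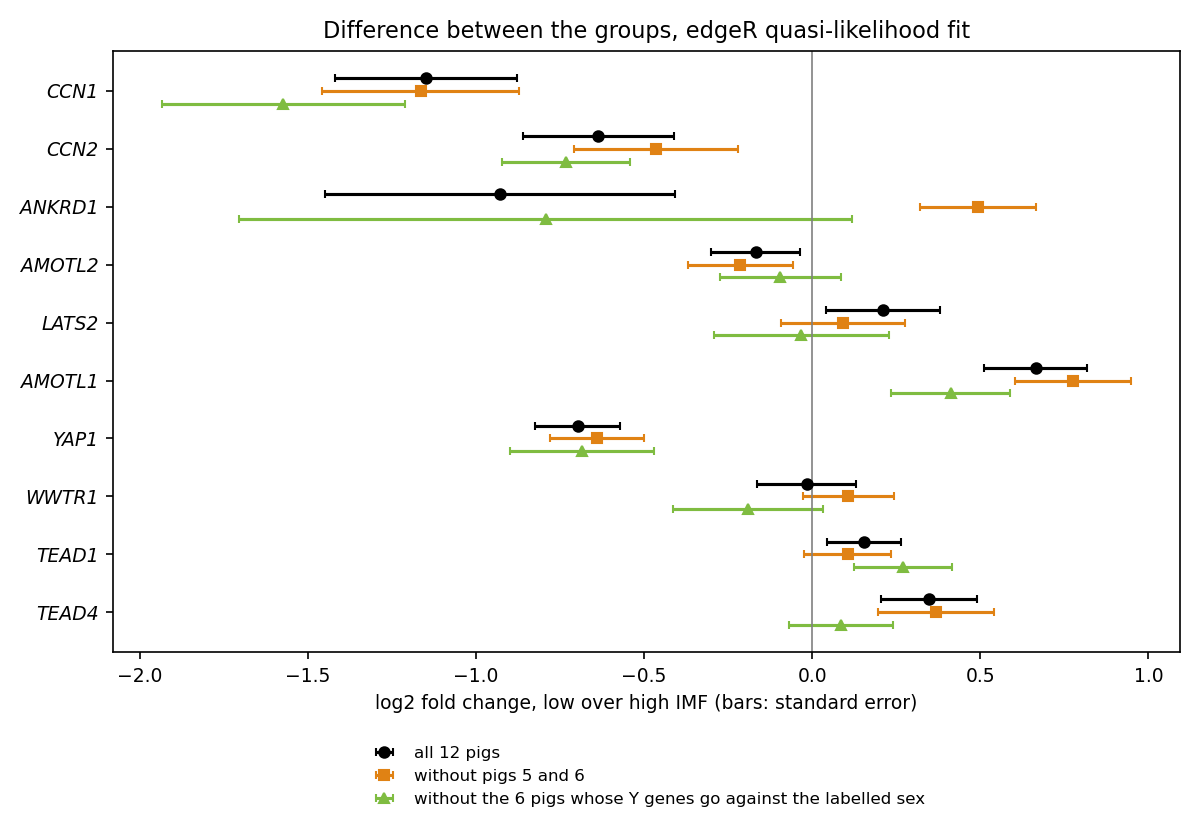
Log2 fold change, low over high IMF, of the 10 genes (horizontal axis, with bars for the standard error) in edgeR's quasi-likelihood fit to all 12 pigs, without pigs 5 and 6, and without the 6 pigs whose Y chromosome counts went against the labelled sex. CCN1, CCN2, AMOTL2 and YAP1 stay below 0 and AMOTL1, TEAD1 and TEAD4 above 0 in the 3 fits. The bars of AMOTL2, TEAD1 and TEAD4 reach 0 in some of them. ANKRD1 moves from -0.93 to 0.49 once pigs 5 and 6 are left out.

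Of the 7 members that the study had not listed, 0 passed edgeR's thresholds, an adjusted p up to 0.05 together with a log2FC of 0.58 or more in either direction, and so did 0.0% of all genes, the smallest adjusted p of any gene being 0.19. At an unadjusted p at or under 0.05 by edgeR 1 of the 7 was higher in high IMF pigs, CCN2, where 5.04% of all genes were. In the other direction there was 1, TEAD4, where 5.38% of all genes were. DESeq2's Wald test on all genes with at least 1 count called 65 genes at the same thresholds, 0.32% of those tested, and 0 of the 7. Of all 10 members, 2, YAP1 and AMOTL1, had groups that did not overlap, against 0.659% of all genes. A log2FC below 0 was found for 6 of the 10 members and for 51.6% of all genes, and the medians were -0.09 and -0.01. Since the choice of the members used this contrast, nothing is read from these counts.

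Set beside one another per kilobase of annotated exon, the genes differed widely in level. The length took in all bases covered by any RefSeq exon of the gene, not those of a single transcript, while the counts followed Ensembl genes. The order of genes close in level therefore depends on the annotation as well. ANKRD1 had a mean of 236 CPM (counts relative to library size) per kilobase of exon, with a range over the pigs from 82.5 to 897. TEAD1 followed with 22.0, TEAD4 with 19.4, CCN2 with 18.3, CCN1 with 17.4, AMOTL1 with 15.2 and YAP1 with 14.7 on the same scale. AMOTL2 had 2.46, LATS2 1.75 and WWTR1 1.18, so the co-activator YAP1 stood well above WWTR1 in this muscle. ANKRD1 was above TEAD1, and YAP1 above AMOTL2, in 12 of 12 pigs with ranges that did not overlap. Every other pair of neighbours had ranges that overlapped. TEAD1 exceeded TEAD4 in 10 of 12 pigs, AMOTL2 exceeded LATS2 in 11 and LATS2 exceeded WWTR1 in 11. The order was less regular between the others: TEAD4 exceeded CCN2 in 6 of 12 pigs, CCN2 exceeded CCN1 in 8, CCN1 exceeded AMOTL1 in 7, and AMOTL1 exceeded YAP1 in 6.

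Whether the target genes moved jointly was examined from pig to pig. Pig 6 had the highest YAP1, ANKRD1 and WWTR1, the second highest CCN1 and the third highest CCN2 of the 12 pigs. Pig 1 had the highest CCN1, the second highest CCN2 and LATS2 and the third highest AMOTL2, but ranked 10 for ANKRD1. Pig 3 had the second highest YAP1 and the third highest CCN1, but ranked 11 for CCN2, 10 for AMOTL2 and 12, the lowest, for ANKRD1. Pig 7 had the lowest CCN2 and AMOTL2 and the highest TEAD4. The targets therefore did not share one order of the pigs: a rank of 1 for one target stood beside a rank of 10 or further down for another in pigs 1 and 5.

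The group difference took part in choosing the members, so the test of joint movement used each pig's deviation from the mean of its group, in log2 CPM, over 12 pigs. P-values came from exact permutation tests, two-sided, over the 518400 arrangements of the pigs within the groups. Of the 45 pairs of members, 0 passed an adjusted p of 0.05, by Pearson's r or by Spearman's rho, and the smallest adjusted p was 0.306. Unadjusted, 2 pairs were at or under 0.05 by r and 3 by rho. The median r was 0.03 over the 45 pairs and 0.05 over the 10 pairs of targets, of which 5 were above 0.

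**Figure D3:**
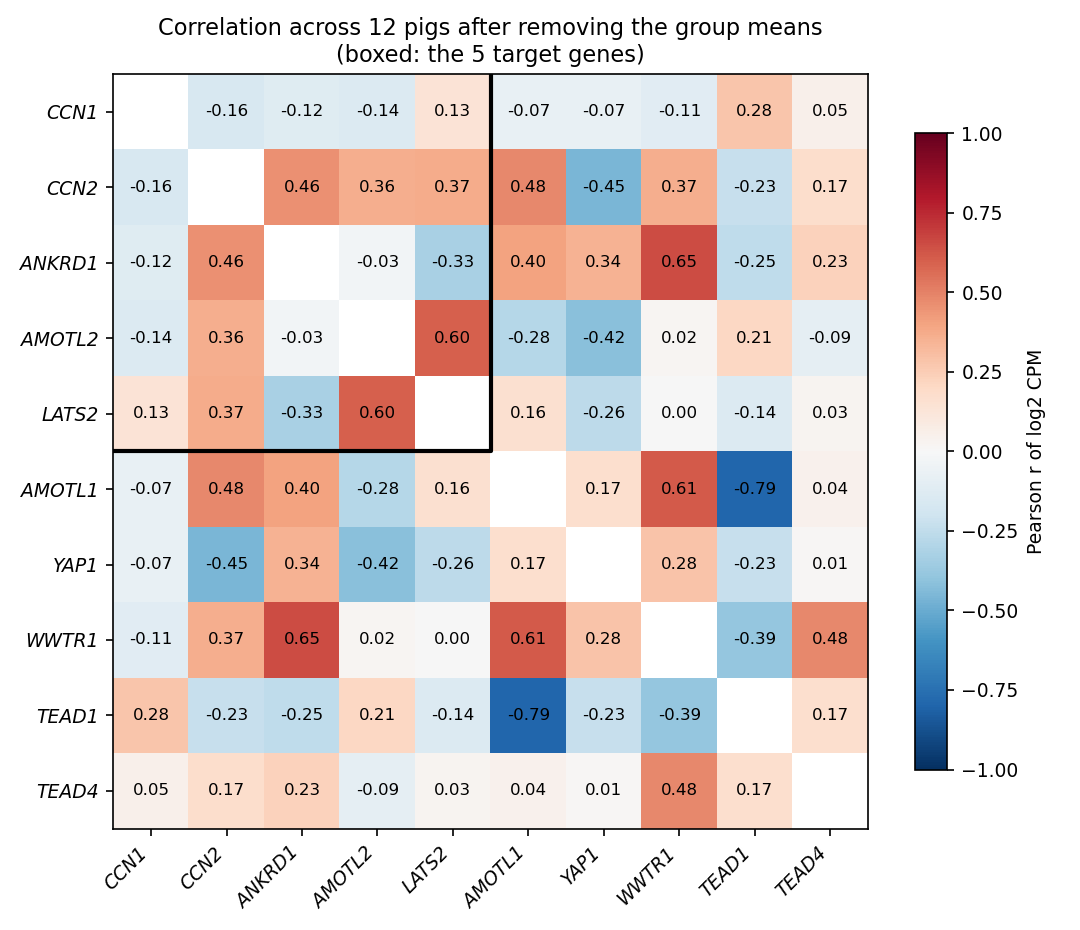
Pearson's r between each pair of the 10 genes across 12 pigs after the mean of each group was removed (log2 CPM; colour scale from -1 to 1), with a box around the 5 target genes. The target genes do not form a block of high values: r is -0.16 for CCN1 with CCN2 and 0.60 for AMOTL2 with LATS2.

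CCN1 and CCN2 both had a higher mean in the high IMF group, where the difference of CCN2 did not pass the threshold. They had no detectable relation within the groups (r = -0.16, rho = 0.00, exact permutation p = 0.621, adjusted p = 0.938). Without pigs 1 and 12, the farthest from the median of CCN1, r was -0.21, and without the 6 pigs of contradicted label it was 0.37. CCN1 with ANKRD1 gave r = -0.12 (rho = -0.29, exact permutation p = 0.629, adjusted p = 0.938). CCN2 with ANKRD1 gave r = 0.46 (rho = 0.31, exact permutation p = 0.195, adjusted p = 0.820), with 0.61 in the high and -0.06 in the low IMF group. AMOTL2 with LATS2 gave the highest value among the targets, r = 0.60 (rho = 0.66, exact permutation p = 0.0529, adjusted p = 0.725), and it was 0.32 without pigs 2 and 7.

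No pair of YAP1 with a target passed either. Its r with the 5 targets ran from -0.45 for CCN2 to 0.34 for ANKRD1 with a median of -0.26, and 1 of the 5 was above 0. For CCN1 with YAP1 r was -0.07 (rho = -0.14, exact permutation p = 0.830, adjusted p = 0.983), being 0.50 in the high and -0.48 in the low IMF group. With 12 pigs r is imprecise, and a p that misses the threshold does not show that the genes are unrelated.

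The pair with the largest r in size was AMOTL1 with TEAD1, at -0.79 (rho = -0.51, exact permutation p = 0.0133, adjusted p = 0.306). Of all 101695191 pairs of genes tested, 0.891% had an r at least as large in size. The relation rested on pig 9, which had the highest AMOTL1 and the lowest TEAD1 of all pigs, since r was -0.37 without pigs 4 and 9 and -0.46 without pig 9 alone. AMOTL1 with WWTR1 gave r = 0.61 (rho = 0.74, exact permutation p = 0.0136, adjusted p = 0.306), and r was 0.79 without pigs 4 and 9. ANKRD1 with WWTR1 gave r = 0.65 (rho = 0.49, exact permutation p = 0.0816, adjusted p = 0.725). With each pig left out its r ran from 0.22, without pig 6, to 0.82, and it was 0.58 without pigs 5 and 6 together.

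A wider list of conserved YAP and TAZ targets, 22 genes that include the 5 above, was looked at in the same way. Of its 18 genes tested other than CCN1, 1 passed an unadjusted p of 0.05, CCN2, higher in high IMF pigs, and 0 passed after adjustment by edgeR or were called by DESeq2. Their median log2FC was -0.01, with 10 of 18 below 0, and the values ran from ANKRD1 to ASAP1 at 0.29 (SE 0.26; adjusted p = 0.719, edgeR). Within groups the 171 pairs of all 19 genes tested had a median r of 0.14, and 14.6% of them reached 0.5, beside 8.23% of all pairs of genes. YAP1 had a median r of 0.25 with these 19 genes, 13 of them above 0. These shares are descriptions, since pairs that share a gene are not independent.

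The other genes of the pathway are counted by list without CCN1, YAP1 and AMOTL1, beside the 10.4% of all genes at an unadjusted p of 0.05 in either direction. In the CCN family, matricellular proteins of one build, 1 of the 5 others tested passed it, CCN2, and 0 after adjustment by edgeR. The highest log2FC of the family was that of CCN6, 0.61 (SE 0.89; adjusted p = 0.846, edgeR), a gene with a mean of 9.44 normalized counts in high and 14.4 in low IMF pigs. Among WWTR1 and the 4 TEAD genes 1 of 5 passed unadjusted, TEAD4, with a median log2FC of 0.15. Of the VGLL cofactors, which compete for TEAD factors, 3 of 4 were tested and 0 passed, from VGLL4 at -0.43 (SE 0.40) to VGLL3 at 0.01 (SE 0.21).

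The Hippo kinase cassette and its regulators had 25 of 26 genes tested, and the 24 other than AMOTL1 had a median log2FC of 0.10 (beside -0.01 over all genes), with 8 below 0. Unadjusted, 1 was higher in high IMF pigs: FRMD6, an upstream scaffold, at -0.64 (SE 0.28; adjusted p = 0.457, edgeR). The 2 that were higher in low IMF pigs were NF2 and CSNK1D, named after their values were seen. NF2, the upstream activator merlin, had 4083 ± 326 normalized counts (SD, n = 6) in high and 4943 ± 255 (SD, n = 6) in low IMF pigs, a log2FC of 0.28 (SE 0.08; adjusted p = 0.367, edgeR). DESeq2's Wald test gave NF2 an adjusted p of 0.0478, with a log2FC under the size needed for a call. CSNK1D, a casein kinase that marks YAP1 for degradation, had a log2FC of 0.38 (SE 0.13; adjusted p = 0.427, edgeR). After adjustment 0 of the 24 passed by edgeR, beside 3 at an unadjusted p of 0.05, and 0 were called by DESeq2.

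**Figure D4:**
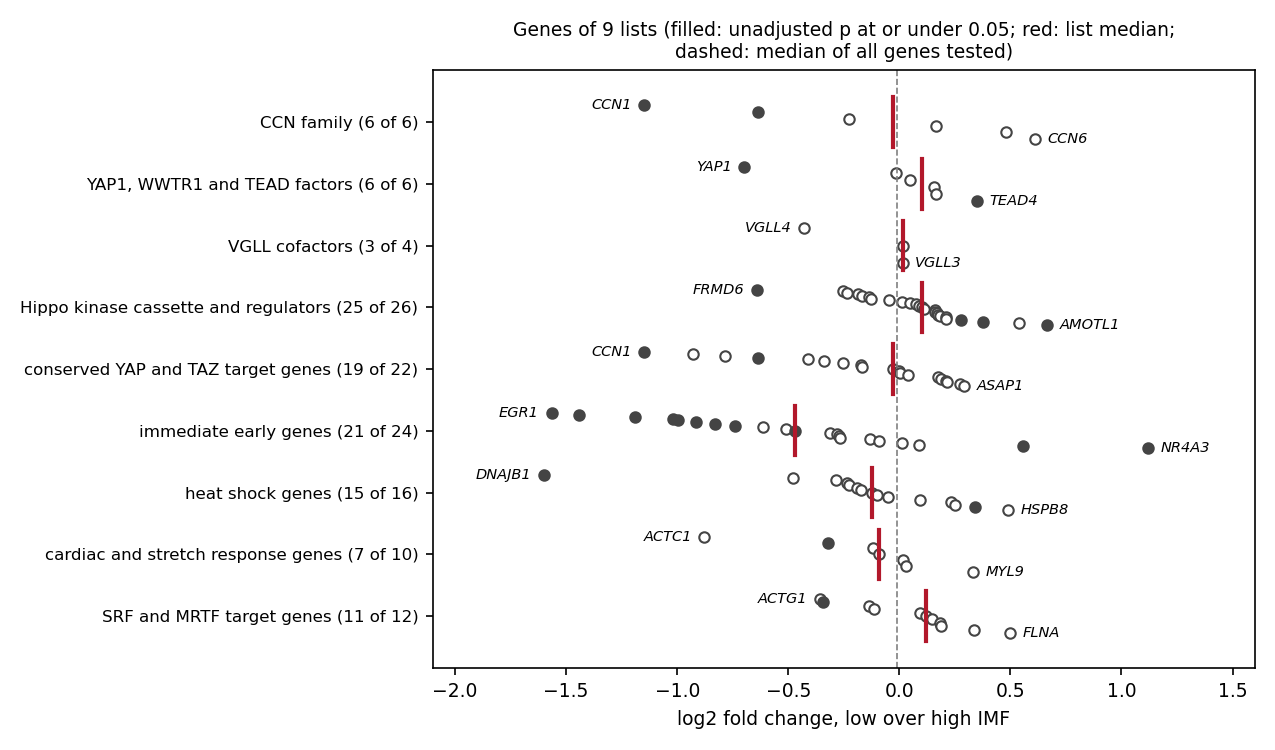
Log2 fold change, low over high IMF, of each gene tested in 9 lists (one row per list, with the number tested of the number listed), filled where the unadjusted p of edgeR was at or under 0.05, with a red bar for the list median and a dashed line for the median of all genes. The immediate early genes lie mostly to the left, with a median of -0.47, while the YAP and TAZ targets centre near 0.

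CCN1 also belongs to the genes that respond within minutes to serum and stress, so the immediate early genes were set beside it. Of 21 tested of 24, 9 were higher in high and 2 higher in low IMF pigs at an unadjusted p of 0.05, beside 5.04% and 5.38% of all genes, and 0 passed after adjustment by edgeR or were called by DESeq2. The median log2FC was -0.47. The values ran from EGR1 at -1.57 (SE 0.62) to NR4A3 at 1.12 (SE 0.37). JUNB had no count in any pig. Of the 210 pairs of these immediate early genes, 23.3% reached an r of 0.5 within groups, beside 8.23% of all pairs of genes. Genes that move together are not separate results, so the number that passed unadjusted is a description. Within groups r of CCN1 with the mean of these genes was 0.67 (rho = 0.63, exact permutation p = 0.0322, adjusted p = 0.456), which did not pass, being 0.89 in the low and 0.33 in the high IMF group. The part of these genes in the difference of CCN1 was not tested.

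Of all named genes, those with the highest within-group r to CCN1 were ACVR1B at 0.92, ZFP36 at 0.88, RNF144B at 0.87, and JRKL and FOS at 0.86, over 12 pigs. FOS and ZFP36 are immediate early genes, ACVR1B encodes an activin receptor and RNF144B a ubiquitin ligase. FOS, like CCN1, was higher in high IMF pigs, with 68900 ± 27720 normalized counts (SD, n = 6) against 30160 ± 25390 (SD, n = 6), whereas ACVR1B had a log2FC of 0.10 (SE 0.13). The 5 were picked as the highest of all genes, so their r carries no test.

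For YAP1 the nearest genes were CEBPB at 0.92, PCNX4 at 0.92, ZNF79 at 0.88, CNOT10 at 0.87 and UFD1 at 0.84. CEBPB, which the study had also listed, is a transcription factor of fat cell differentiation and inflammation and moved with YAP1 inside both groups (r = 0.91 in high and 0.96 in low IMF pigs). Between the groups it stood the other way, with 6474 ± 1038 normalized counts (SD, n = 6) in high and 11520 ± 3576 (SD, n = 6) in low IMF pigs. None of the 5 is a target on the lists used here. Like those of CCN1, they were picked as the highest of all named genes, so their r, also inside each group, carries no test.

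The nearest genes of ANKRD1 were HBEGF, a growth factor of the EGF family, at 0.93, ENC1 at 0.92, TRAFD1 and STAT6 at 0.91 and FOLH1B at 0.91. These values rested on pigs 5 and 6: without them HBEGF had r = 0.57 and TRAFD1 0.35. In the low IMF group alone HBEGF had r = 0.18. These genes were likewise picked as the highest, so their r carries no test.

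Markers of other cell types were then compared with the members, since whole muscle holds them all. Each of the 10 genes was set against the mean log2 CPM of 9 lists. These were the cell type lists, fibre genes included, and the lists of immediate early and heat shock genes. Of the 90 relations in all, 1 passed an adjusted p of 0.05 by r and 0 by rho. That relation was CCN1 with 7 endothelial markers, at r = -0.87 (exact permutation p = 0.000125, adjusted p = 0.0113) and rho = -0.86 (exact permutation p = 0.00222, adjusted p = 0.200). Pigs with more endothelial RNA had less CCN1, with r = -0.89 in the high and -0.86 in the low IMF group, and r was -0.84 without pigs 1 and 12. The adjusted p rose above 0.05 when pig 7, 8, 9 or 12 was left out alone, to 0.0656, 0.108, 0.0656 and 0.116 in that order. Over all fits with 1 pig left out r stayed between -0.91 and -0.85. Without the 6 pigs of contradicted label r was -0.96, with 48 arrangements left and an adjusted p of 0.536. So few arrangements cannot bring a single relation of 90 to an adjusted p of 0.05, so that p decides nothing.

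The 7 endothelial markers tested together had 16400 to 22330 normalized counts in high and 17150 to 27340 in low IMF pigs, and VWF was not tested. Their median log2FC was 0.16, and 1 of the 7, CDH5, named after its value was seen, passed an unadjusted p of 0.05, at 0.55 (SE 0.16; adjusted p = 0.384, edgeR). Of all genes 5.38% passed it in that direction, higher in low IMF pigs. CCN2, the other matricellular gene, had r = -0.23 with the same markers (rho = -0.26, exact permutation p = 0.498, adjusted p = 0.963). The relation of CCN1 with the smooth muscle and pericyte markers (r = -0.76, rho = -0.69, exact permutation p = 0.0128, adjusted p = 0.350) did not pass. The part of either cell type in the group difference of CCN1 was not tested.

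**Figure D5:**
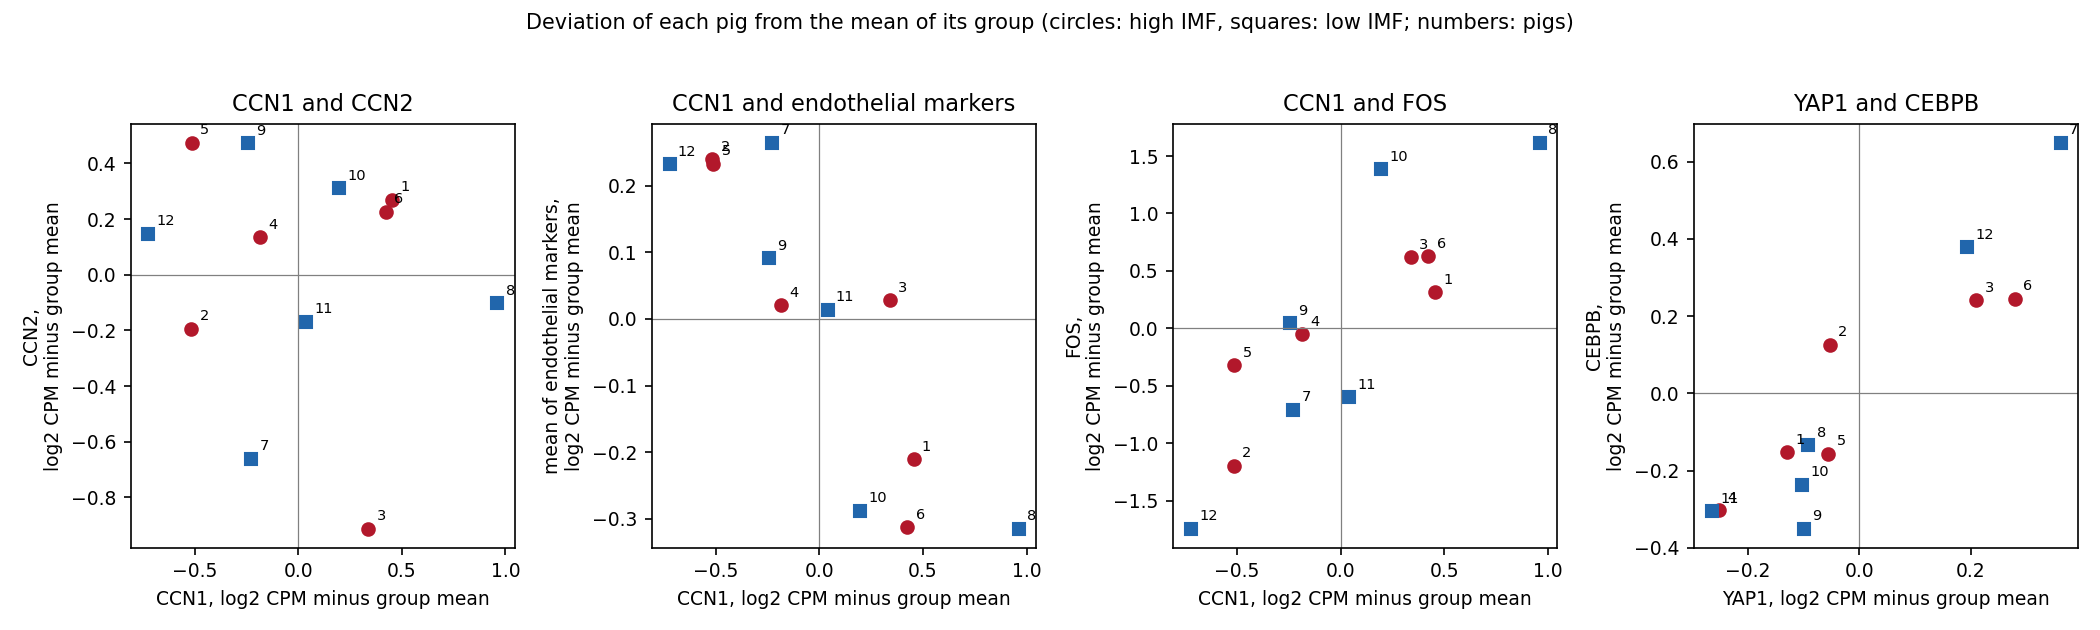
Deviation of each pig from the mean of its group in log2 CPM, for CCN1 (horizontal axis) against CCN2, against the mean of 7 endothelial markers and against FOS, and for YAP1 against CEBPB, with circles for the 6 high IMF and squares for the 6 low IMF pigs. CCN1 shows no slope with CCN2 (r = -0.16), a falling one with the endothelial markers (r = -0.87) and a rising one with FOS (r = 0.86), and YAP1 rises with CEBPB (r = 0.92). FOS and CEBPB were picked among the genes with the highest r, so their panels carry no test.

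Markers of adipocytes and of fibro-adipogenic stromal cells, the cells most tied to fat in muscle, stood as follows. The 8 adipocyte markers had 60780 to 85360 normalized counts in high and 36600 to 111200 in low IMF pigs, and 0 of 8 passed an unadjusted p of 0.05. The median log2FC of these adipocyte markers was 0.15, with 2 of 8 below 0. The 7 fibro-adipogenic stromal markers tested had 224500 to 431100 and 330900 to 496600. Their median log2FC was 0.06, with 3 of 7 below 0, and the highest was COL1A1 at 0.46 (SE 0.31). Of the 7, 1 passed unadjusted, PDGFRA, named after its value was seen. It had a log2FC of -0.42, higher in high IMF pigs, as were 5.04% of all genes at that p. No relation of a member with either list passed an adjusted p of 0.05, the nearest being TEAD4 with the adipocyte markers at r = -0.64 (rho = -0.23, exact permutation p = 0.0452, adjusted p = 0.508).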

How the data were processed

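RNA of the *Semimembranosus* muscle of 12 pigs was sequenced as stranded polyadenylated libraries with paired-end reads. Per the labels and the methods of the study, the authors trimmed the reads with Trimmomatic, aligned them with HISAT2 to the pig genome Sscrofa11.1, assembled transcripts with StringTie and counted reads per Ensembl gene with HTSeq. They deposited whole-number counts that were not normalized. The strand option of the counting is not given in the sources used here, so reads of overlapping antisense genes cannot be told apart.

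Genes kept by filterByExpr were normalized by TMM and compared between the 6 high and 6 low IMF pigs with edgeR's quasi-likelihood test (edgeR 4.0.16, R 4.3.3), group being the only term, with Benjamini-Hochberg adjustment over 14262 genes. Calls needed an adjusted p up to 0.05 together with a log2FC of 0.58 or more in either direction. DESeq2 1.42.0 and limma-voom 3.58.1 were alternatives. A prior count of 2 entered the log2 CPM scale. The lowest count of a member in any pig was 557, for WWTR1 in pig 3. For the members the counting error is thus well under the variation among pigs (common biological coefficient of variation 0.332). This does not hold for listed genes with few counts, such as CCN6 with a mean of 9.44 in high IMF pigs. Correlations used deviations from group means with exact permutation within groups (scipy 1.17.1, numpy 2.4.6 and pandas 2.3.3 under Python 3.11.15), adjusted over 45 member pairs and over 90 relations with lists. Level per kilobase used RefSeq exon length. The tests were tried on simulated data.

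The members and the gene lists were chosen with earlier results of these data known. Named genes are all members, the 5 nearest named genes of CCN1, YAP1 and ANKRD1, and the genes with the lowest and highest log2FC of each pathway list. Others are named as chosen after their values were seen. Libraries were run in pairs per lane, and which pairs is not given in the sources used here, so lanes and groups could not be compared. Per the study the pigs were slaughtered on several different days. The day of each pig is not given either, so a part of the day in the values was not tested.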

Additional observations from a re-analysis of the deposited data

Results flagged for a closer look

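The AMOTL1 level of pig 9, in the low IMF group, stood apart from its group: 35446 normalized counts, against 22763 in the next pig of the group. The gap was 0.774 of the range of the 6 pigs, above Dixon's critical value for 6 values. Of the 20 groups of 6 pigs examined over the 10 genes, 1 was marked in this way, and chance marks about 1 in 20. The AMOTL1 log2FC was 0.51 without this pig and 0.66 with it.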

How the results depend on the processing

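No paired analysis was possible because the labels number the pigs 1 to 12 and pair none across groups. The count of genes past both thresholds was 0 by edgeR (1486 at an unadjusted p of 0.05), 58 by DESeq2's Wald test on those genes and 65 when every gene with a count entered, with 0 of the 7 members that the study had not listed in either. It was 0 by limma-voom and ran from 0 to 1 with each pig left out, being 1 without pig 5 and 1 without pig 10. The count of relations between members and lists past an adjusted p of 0.05 was 1, and 0 to 1 with each pig left out. It was 0 without the 6 pigs of contradicted sex label, where 48 arrangements are too few for a single relation of 90 to pass. These alternatives for the lists, and the fit without pigs 5 and 6, were chosen after seeing the data. Direction turned for ANKRD1 without pigs 5 and 6 (0.49), for LATS2 without the 6 pigs (-0.0322), and for WWTR1 by limma-voom (0.0063), with age as a covariate (0.0137), without pigs 5 and 6 (0.107), and without pig 6, 8 or 12, its values with each pig left out running from -0.0927 to 0.110. Without the 6 pigs, r turned to 0.37 for CCN1 with CCN2 and to 0.33 for CCN1 with ANKRD1. With each pig left out r ran from -0.529 to 0.0369 for CCN1 with ANKRD1, turning without pig 5, and from -0.233 to 0.0913 for CCN1 with YAP1, turning without pig 7, 8 or 12. The cause was not tested. The median r over the 10 target pairs ran from -0.03 to 0.20 with each pig left out. Leaving out 6 pigs leaves 2 in the low IMF group, and 12 pigs limit the precision of every r.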

Other observations

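Of 15 heat shock genes tested of 16, 1 was higher in high and 1 in low IMF pigs at an unadjusted p of 0.05. The shares of all genes were 5.04% and 5.38%. After adjustment by edgeR 0 of the 15 heat shock genes passed, with a median log2FC of -0.12. They ran from DNAJB1, a co-chaperone of the stress response that the study had also listed and the 1 gene of this list called by DESeq2, at -1.60 (SE 0.34) to HSPB8 at 0.49 (SE 0.42). HSP90AA1 had no count in any pig. Of 7 cardiac and stretch response genes tested of 10, the companions of ANKRD1 under load, 1 was higher in high IMF pigs unadjusted, beside 5.04% of all genes. The list ran from ACTC1, the cardiac actin, at -0.88 (SE 0.45) to MYL9 at 0.33 (SE 0.38). Of 11 genes tested of 12 on the list of SRF and MRTF targets, which answer to the actin cytoskeleton, 1 was higher in high IMF pigs unadjusted, beside the same 5.04%. The values ran from ACTG1 at -0.36 (SE 0.21) to FLNA at 0.50 (SE 0.27).

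Among the remaining cell types, 2 of 8 macrophage markers were higher in high IMF pigs at an unadjusted p of 0.05, beside 5.04% of all genes. The macrophage markers had a median log2FC of -0.26, and 9749 to 22940 summed normalized counts in high and 11120 to 19740 in low IMF pigs. WWTR1 with their mean within groups gave r = 0.83 (rho = 0.51, exact permutation p = 0.00506, adjusted p = 0.228), which did not pass after adjustment, and r was 0.45 without pigs 3 and 6. Of 8 smooth muscle and pericyte markers and 5 satellite cell markers tested, as of 3 fibre genes, 0 passed unadjusted. WWTR1 with the satellite cell markers gave r = 0.61 (rho = 0.69, exact permutation p = 0.0155, adjusted p = 0.350) and TEAD1 with them r = -0.69 (rho = -0.46, exact permutation p = 0.0291, adjusted p = 0.456), neither passing after adjustment. CCN2 with the 3 fibre genes tested gave r = -0.61 (rho = -0.74, exact permutation p = 0.0355, adjusted p = 0.456), which did not pass either, and r was -0.38 without pigs 5 and 7.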
